A study of Mus musculus with 8 samples.

Results

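The acyl-CoA thioesterases were described here in adult mouse liver, as the 10 genes *Acot1*, *Acot2*, *Acot3*, *Acot4*, *Acot7*, *Acot8*, *Acot9*, *Acot11*, *Acot12* and *Acot13*. The members were found by gene symbol, and all 10 were among the 27179 genes of the deposited table. Liver RNA was sequenced from 4 wild-type mice and 4 homozygous V227A mice, all adult males of the C57BL/6NHsd strain fasted for 6 h. V227A is a valine-to-alanine change in PPARα, the fatty acid-activated nuclear receptor, and was introduced into the germline by adenine base editing. The colony came from 1 heterozygous founder that was backcrossed to the parental strain and bred through heterozygotes. The table used here has 1 mean expression level per gene over the 8 libraries of both genotypes. A level therefore lies between the wild-type and V227A levels where these differ, and no comparison of the genotypes and no spread between mice was analysed here.

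Acyl-CoA thioesterases hydrolyse the thioester bond of an acyl-CoA and release a free acid and coenzyme A. They act against the acyl-CoA synthetases, and so bear on how much activated fatty acid and free coenzyme A each compartment holds. The type I enzymes, encoded by a run of neighbouring genes, share an α/β-hydrolase fold, whereas the type II enzymes share a hotdog fold and are otherwise diverse. *Acot1* to *Acot4* have long been known as PPARα target genes that are induced by fasting and fibrates in rodent liver. By textbook location, the cytosolic members are *Acot1*, *Acot7*, *Acot11* and *Acot12*, the mitochondrial members are *Acot2*, *Acot9* and *Acot13*, and the peroxisomal members are *Acot3*, *Acot4* and *Acot8*.

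The location of these enzymes can be read in part from the ends of their coding sequences. Many enzymes enter peroxisomes through a short signal at the carboxyl terminus, in the form Ser/Ala/Cys, then Lys/Arg/His, then Leu. The last 15 coding bases before the stop codon are shown 5′ to 3′ for the 3 peroxisomal members and for *Acot1* and *Acot2*, with the final 9 bases, the last 3 codons, in capitals. *Acot3* and *Acot4* lie on chromosome 12 (plus strand) and *Acot8* on chromosome 2 (minus strand), with positions in GRCm38.
Acot3, chr12:84059009-84059023: atcccaGCAAAACTG
Acot4, chr12:84043779-84043793: gcctccTGTAGACTG
Acot8, chr2:164792895-164792909: tcagagAGTAAGCTA
Acot1, chr12:84017362-84017376: gtgtctCCTAAAATA
Acot2, chr12:83993063-83993077: ttgggtAGCAAGAGT
The peroxisomal members closed with codons of this form in 3 of 3 genes. The cytosolic members did so in 0 of 4 and the mitochondrial members in 0 of 3. Among 21639 protein-coding genes of the annotation, 90 (0.416%) ended in such codons. A match describes the codons and is not a measurement of where the protein was found.

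*Acot1* and *Acot2* differ most at the other end. The coding sequence of *Acot2*, the mitochondrial matrix enzyme, opens with 129 bases that have no counterpart in *Acot1*, its cytosolic neighbour, which has 6 bases in that place. Amino-terminal extensions of this kind are the usual form of a mitochondrial import signal. The extension is printed with its start codon in capitals, followed by the next 60 bases of both genes, in which capitals mark the bases that differ. All are on the plus strand of GRCm38.
Acot2 extension, chr12:83987902-83988030: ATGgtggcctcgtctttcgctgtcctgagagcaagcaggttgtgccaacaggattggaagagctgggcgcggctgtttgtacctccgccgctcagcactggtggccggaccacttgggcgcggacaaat
Acot2, chr12:83988031-83988090: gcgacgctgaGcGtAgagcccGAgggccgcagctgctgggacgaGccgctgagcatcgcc
Acot1, chr12:84009516-84009575: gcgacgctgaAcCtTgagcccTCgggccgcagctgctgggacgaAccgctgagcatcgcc
The genes differed at 6 of these 60 bases and at 55 of the 1233 bases that could be aligned from here without a gap. Reads that fall between such differences fit both genes, which bears on every value for this pair.

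Levels are given as CPM, the reads of a gene per 1000000 reads of its library. Genes of different lengths were compared mainly as CPM per kilobase of exon, where the length is the union of the annotated exons unless another length is named. Plain CPM, where given beside it, counts reads and is not corrected for length. The number of reads behind each level was estimated from the deposited mean, on the assumption that the default prior count had been added, at an effective library size of 27473997 reads. Each 95% interval is an exact Poisson interval on the total reads of the 8 libraries, and covers counting error only. Of 27179 genes, 18937 had reads, and 17956 of these also had a length. The median gene of those stood at 1.07 CPM per kilobase. All 10 members had reads, and 9 of 10 lay above that median.

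*Acot13*, a small hotdog-fold thioesterase associated with mitochondria, had the highest level per length, at 73.6 CPM per kilobase (95% counting interval 72.2 to 74.9). It was measured with 1504 reads per library at a mean log2 CPM of 5.78. *Acot13* ranked above 96.7% of the genes with reads and a length. *Acot12*, the cytosolic acetyl-CoA hydrolase, followed at 36.9 CPM per kilobase (interval 36.4 to 37.3). Per gene rather than per length *Acot12* came first, with 3334 reads per library and 121 CPM, or 34.6% of all reads of the 10 members. *Acot13* lay 1.996-fold above *Acot12* per kilobase, and these 2 genes were the only members above the 90th percentile of those genes. The *Acot13* transcripts are the shortest of the family, with 744 bases of exon against 3293 for *Acot12*.

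**Figure D1:**
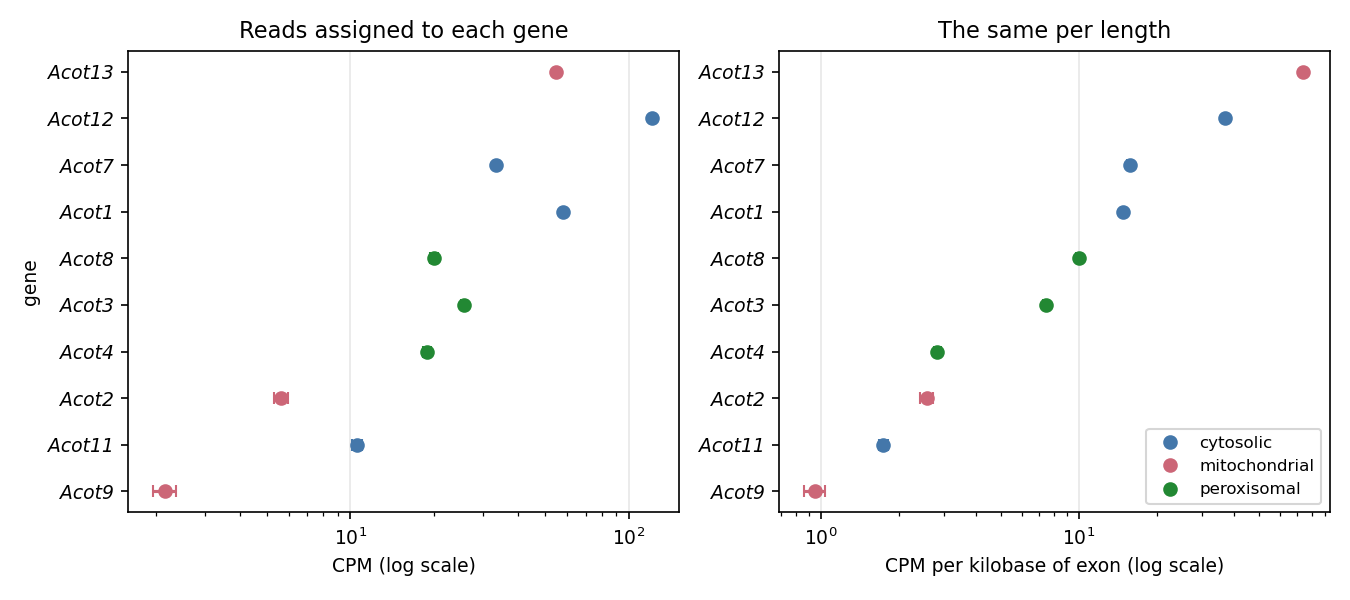
Level of the 10 members as CPM (left) and as CPM per kilobase of exon (right), on log axes, as means over 8 libraries of both genotypes. Points are coloured by compartment and bars are 95% Poisson intervals, mostly narrower than the point. *Acot12* leads by reads and *Acot13* per length.

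*Acot7*, a cytosolic long-chain thioesterase best known from neurons, and *Acot1*, the cytosolic long-chain enzyme of the type I group, had close levels per length. *Acot7* stood at 15.7 CPM per kilobase (interval 15.4 to 16.1) with 918 reads per library. *Acot1* stood at 14.8 (interval 14.6 to 15.1) with 1594 reads per library. The order of this pair depended on the length used. With the longest transcript in place of the union of exons both were at 22.2 CPM per kilobase, and with the coding length *Acot1* was the higher, at 46.2 against 29.0. *Acot11*, a cytosolic enzyme with a lipid-binding START domain known mainly from brown fat, was the lowest cytosolic member, at 1.75 CPM per kilobase (interval 1.68 to 1.82) and 291 reads per library. *Acot12*, which also has a START domain, lay 21.1-fold above *Acot11* per kilobase, and 12.7-fold with the coding length.

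The other mitochondrial members were far below *Acot13*. *Acot2* stood at 2.57 CPM per kilobase (interval 2.43 to 2.71) with 155 reads per library. *Acot9*, a mitochondrial hotdog-fold thioesterase, stood at 0.946 CPM per kilobase (interval 0.863 to 1.04) with 59.1 reads per library. *Acot9* was the lowest of the 10 members on every length used, and the one member below the median of the genes with reads and a length, at the 48.5th percentile. *Acot13* exceeded *Acot2* 28.6-fold and *Acot9* 77.8-fold per kilobase. *Acot2* and *Acot11* changed places when the coding length was used, at 4.15 and 5.74 CPM per kilobase.

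The peroxisomal members were the most even of the groups. *Acot8*, which has broad specificity and accepts bile acid CoA esters, stood at 9.997 CPM per kilobase (interval 9.70 to 10.3) with 548 reads per library. *Acot3*, which acts on long-chain acyl-CoAs, stood at 7.45 (interval 7.26 to 7.65) with 704 reads per library. *Acot4*, the succinyl-CoA thioesterase, stood at 2.82 (interval 2.74 to 2.91) with 517 reads per library. From highest to lowest the group spanned 3.54-fold, against 21.1-fold for the cytosolic and 77.8-fold for the mitochondrial members. With the longest transcript these spreads were 5.15-fold, 21.3-fold and 61.9-fold, and with the coding length 1.39-fold, 12.7-fold and 79.8-fold. The *Acot4* annotation has 6674 bases of exon and 1263 coding bases. The order *Acot8*, *Acot3*, *Acot4* held with the 3 lengths, while by CPM, with no length, *Acot3* at 25.6 stood above *Acot8* at 19.96 and *Acot4* at 18.8.

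Summed over members, the mitochondrial group reached 77.1 CPM per kilobase, the cytosolic group 69.1 and the peroxisomal group 20.3. These are 46.3%, 41.5% and 12.2% of the family total of 166. *Acot13* alone made up 95.4% of the mitochondrial sum, which was 3.51 CPM per kilobase without it, while *Acot12* made up 53.3% of the cytosolic sum. The order of the first pair of groups was not stable. The cytosolic sum was the higher with the longest transcript, at 85.9 against 79.7, with the coding length, at 154 against 136, and with *Acot13* counted as cytosolic, at 143 against 3.51. By CPM, with no length, the cytosolic group held 223, the peroxisomal group 64.4 and the mitochondrial group 62.5. The peroxisomal sum was the lowest per kilobase with the 3 lengths, but exceeded the mitochondrial sum when *Acot13* was counted as cytosolic.

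The type I genes lie side by side on chromosome 12, at 83987861 to 84111349 of GRCm38, all on the plus strand. Over 123489 bases the order is *Acot2*, *Acot1*, *Acot4*, *Acot3*, *Acot5* and *Acot6*, where the last pair encode peroxisomal enzymes that are not among the 10 members. Levels of neighbours differed widely. *Acot1* lay 5.77-fold above *Acot2* per kilobase, and 8.65-fold or 11.1-fold with the other lengths, across a gap of 15616 bases. *Acot5*, which lies 8922 bases beyond *Acot3*, had 1.997 reads, estimated from the mean, in all 8 libraries together, or 0.00598 CPM per kilobase. *Acot6* had 50.8 reads in total and stood at 0.0361, 207-fold below *Acot3*, or 117-fold and 107-fold with the longest transcript and the coding length. *Acot5* and *Acot6* also end in peroxisomal import codons, so among the 5 genes of the family found to carry them, the levels ran from 0.00598 to 9.997 CPM per kilobase.

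**Figure D2:**
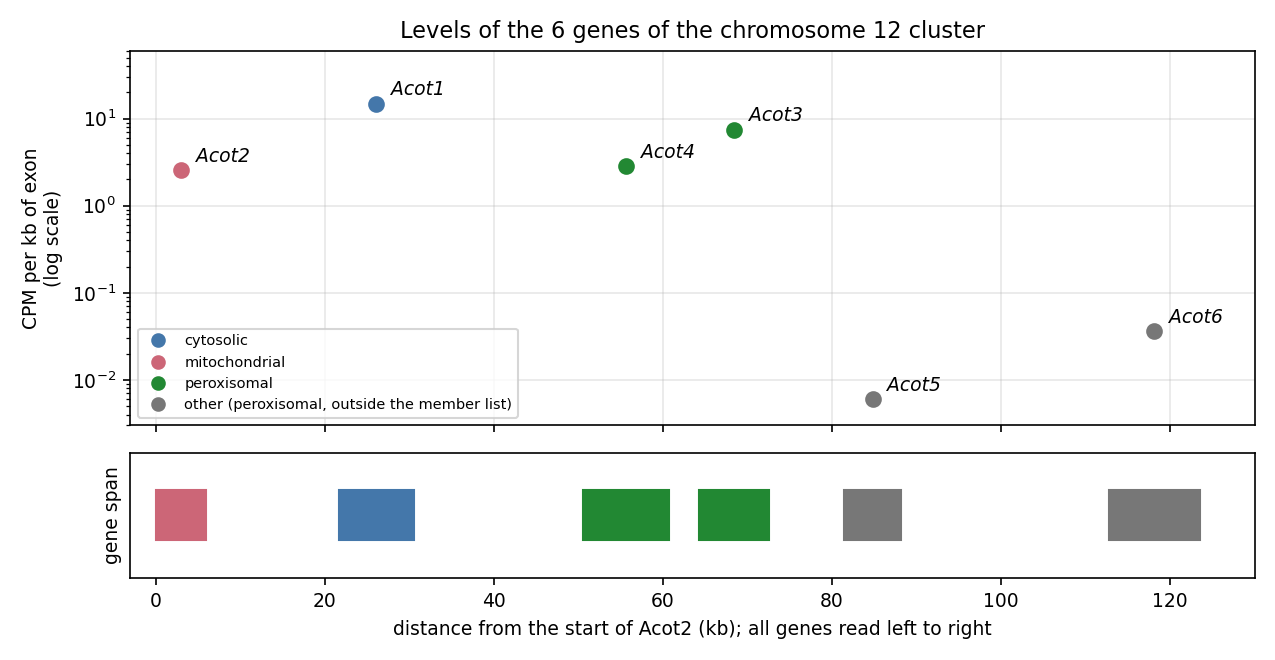
Level in CPM per kilobase of exon (top, log axis) of the 6 genes of the chromosome 12 cluster, placed at their distance in kilobases from the start of *Acot2*, with gene spans below. The first 4 genes stand between 2.57 and 14.8, and *Acot5* and *Acot6* at 0.00598 and 0.0361.

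The remaining members are dispersed. *Acot8* lies on chromosome 2 (164792765 to 164804882, minus strand), *Acot11* on chromosome 4 (106744555 to 106804998, minus strand) and *Acot7* on chromosome 4 (152178134 to 152271855, plus strand). *Acot13* lies on chromosome 13 (24817948 to 24831540, minus strand), *Acot12* on chromosome 13 (91741512 to 91786148, plus strand) and *Acot9* on the X chromosome (155262443 to 155297654, plus strand).

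The coding sequences of the cluster are alike enough for reads to fit several genes. *Acot1* and *Acot2* were identical at 95.5% of aligned bases, *Acot3* and *Acot5* at 86.7%, and *Acot1* and *Acot3* at 86.3%. Of all stretches of 50 coding bases, 59.0% of those in *Acot1* and 45.2% of those in *Acot2* also occurred in another *Acot* gene, mostly each other. The shares were 20.8% for *Acot3* and 20.5% for *Acot4*. Counted against every other annotated gene on either strand, overlapping gene models included, they were 58.7% for *Acot3* and 66.5% for *Acot4*. For *Acot9* the share was 24.9%, with *Acot10*, a single-exon gene that matched it at 97.2% of aligned bases and stood at 0.187 CPM per kilobase. *Acot7*, *Acot8*, *Acot11*, *Acot12* and *Acot13* shared no such stretch with another *Acot* gene. Against every other annotated gene, *Acot8* shared 7.77%, with *Snx21*, and *Acot12* shared 4.99%, with *4833422C13Rik*. How the authors' counting treated reads that fit several genes is not given in the sources used here. Of the genes beside the members, *Acot5* shared 27.5%, *Acot6* 16.4% and *Acot10* 24.9% with another *Acot* gene. For *Acot10* the share was 48.4% against every other annotated gene. *Acot11* shared no coding stretch with any gene, but 17.3% of all its transcript stretches of 50 bases with *Fam151a*. The levels of *Acot1*, *Acot2*, *Acot3*, *Acot4*, *Acot5*, *Acot6*, *Acot8*, *Acot9*, *Acot10*, *Acot11* and *Acot12* are therefore less certain than their counting intervals. The part of shared reads in these levels was not tested.

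**Figure D3:**
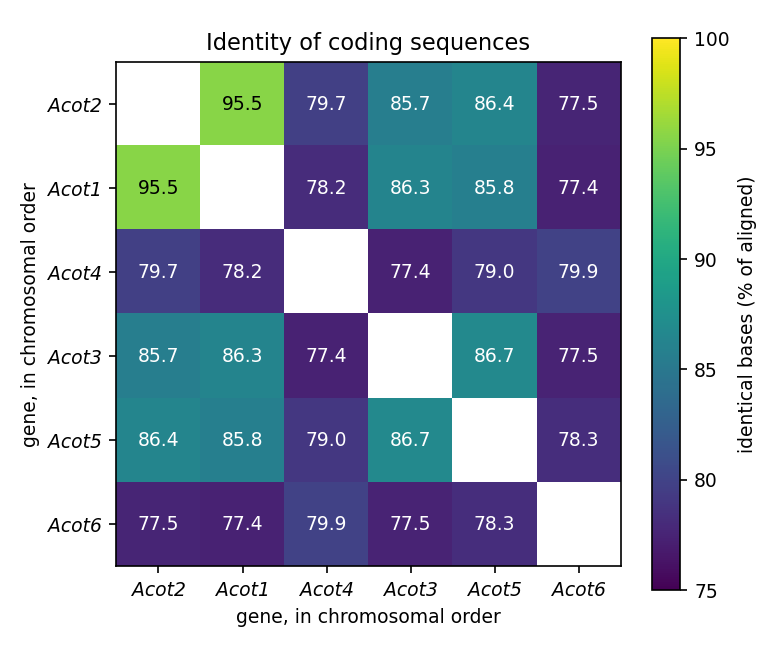
Identity of coding sequences between the 6 genes of the chromosome 12 cluster, as percent of aligned bases, in chromosomal order. *Acot1* and *Acot2* match at 95.5%, and the other pairs lie between 77.4% and 86.7%.

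Some members also overlap other annotated genes, counted over gene spans with introns. *Acot8* overlaps *Snx21*, a sorting nexin on the opposite strand, over 1052 bases, and *Snx21* had 217 reads per library. *Acot12* overlaps the antisense gene *4833422C13Rik* over 361 bases, which had 41.7 reads per library. *Acot11* overlaps *Fam151a* on the opposite strand, which had 2.02 reads in the 8 libraries together. *Acot3* and *Acot4* overlap the same-strand gene model *Gm49366*, over 6470 and 9667 bases, and the antisense *4732463B04Rik*, over 1664 and 9133 bases. The levels of *Gm49366* and *4732463B04Rik* were not analysed here. The libraries were stranded, but the strand setting of the counting is not given in the sources used here.

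The promoters were searched for AGGTCA, the half-site to which PPARα and other nuclear receptors bind, on both strands of the RefSeq windows (GRCm38) from 250 bases before to 50 bases after each start. Of the 10 members, 9 had a window, and *Acot13* had none. The hexamer occurred for *Acot3*, *Acot4* and *Acot12* and in 16.3% of all 32851 promoters. The full direct repeat, which is the hexamer followed by any base and the hexamer again and so overlaps the first search, was in no window of the family and in 0.0396% of all promoters. These are matches of letters in a short window and say nothing about binding.

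Beyond the family of 10, the other thioesterases spanned a wide range. *Baat*, the peroxisomal enzyme that conjugates bile acids to amino acids, stood at 113 CPM per kilobase, 1.53-fold above *Acot13*. *Them4*, a mitochondrial hotdog-fold thioesterase, stood at 4.94 and *Them6* at 1.65. *Them5*, which lies beside *Them4* and acts on mitochondrial acyl-CoAs, stood at 0.153. Counted with *Acot5*, *Acot6* and *Acot10*, the list of 7 had a median of 0.187, against 8.72 for the 10 members.

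The genes that make and use acyl-CoA were mostly higher. The 14 acyl-CoA synthetases had a median of 17.4 CPM per kilobase, led by *Slc27a2* at 549, which activates very long-chain fatty acids, *Slc27a5* at 471, which activates bile acids, and the medium-chain *Acsm1* at 241, with *Acsl6* lowest at 0.0263. The 7 genes kept of the peroxisomal oxidation list had a median of 82.6, led by the thiolases *Acaa1b* at 615 and *Scp2* at 462 and the bifunctional enzyme *Hsd17b4* at 112, with *Acaa1a* lowest at 56.6. The 9 genes of mitochondrial oxidation had a median of 60.7, led by the thiolase *Acaa2* at 751 and the dehydrogenases *Acadvl* at 226 and *Acadl* at 102, with *Hadhb* lowest at 4.87. *Acot13*, at 73.6, thus exceeded the lowest peroxisomal oxidation gene and lay between the medians of the mitochondrial and the peroxisomal oxidation list. The 3 peroxisomal thioesterases, at 2.82 to 9.997, all lay below that lowest gene. Over the coding length *Acot13* stood at 130 and *Acaa1a* at 196, so their order depended on the length used. The nudix hydrolases, which cleave coenzyme A and its esters at the diphosphate bond, stood at 97.0 for the peroxisomal *Nudt7*, 17.9 for the peroxisomal *Nudt19* and 16.3 for the mitochondrial *Nudt8*. *Nudt7* was therefore higher than any of the 10 thioesterases.

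**Figure D4:**
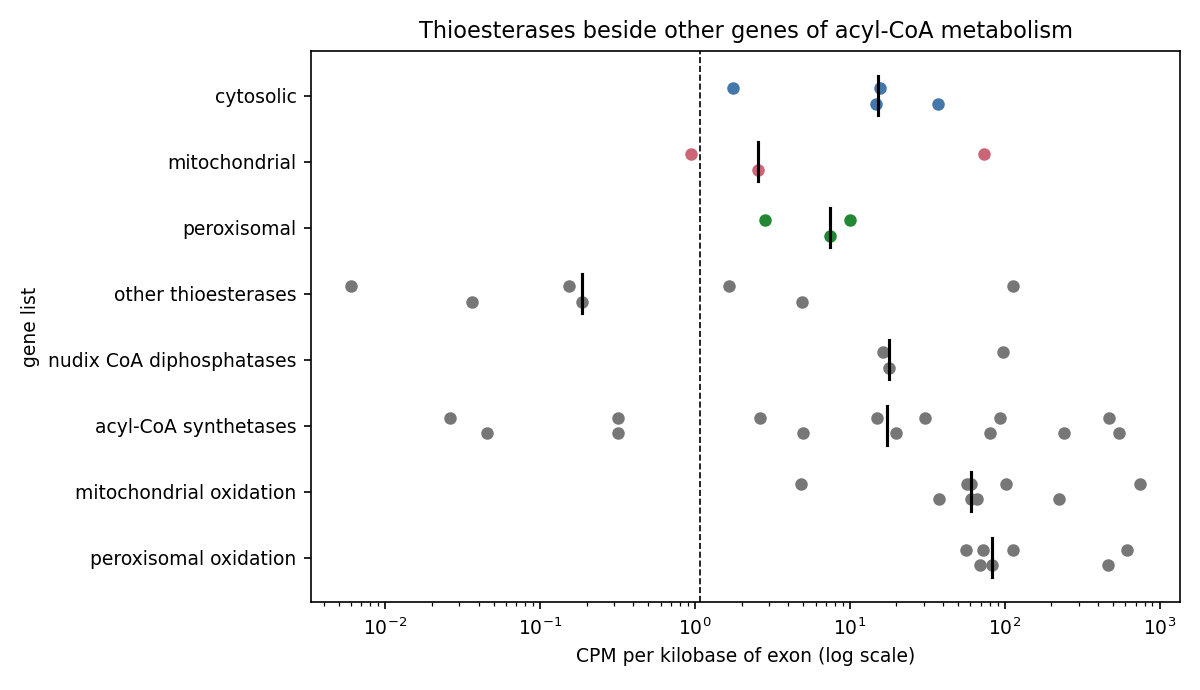
Level in CPM per kilobase of exon (log axis) of each gene of the thioesterase groups and of other genes of acyl-CoA metabolism, as means over 8 libraries. Points are genes, black bars are medians of a list, and the dashed line is the median of all genes with reads and a length at 1.07. Each oxidation gene other than *Hadhb* lies above the 9 members other than *Acot13*, and *Acot13* lies within their range.

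The tissue matched its label, since hepatocyte markers were at 332 (*Cps1*) to 29709 (*Alb*) CPM per kilobase. The highest markers of other liver cells were *Clec4f* of Kupffer cells at 33.2, *Dcn* of stellate cells at 17.1, *Stab2* of endothelial cells at 5.05 and *Krt19* of bile duct cells at 1.996. Levels in whole liver sum over these cells, and fewer cells of a type cannot be told apart from less RNA per cell. Of the tissues in which *Acot11* and *Acot7* are best known, the genes listed as brown fat markers were at most 0.181 (*Adipoq*). *Ucp1*, the uncoupling protein, stood at 0.0311, with 11.2 reads in the 8 libraries together. Of the neuronal markers, *Rbfox3* was highest at 0.262, and *Snap25* had no reads. The muscle markers reached at most 0.446 (*Acta1*). *Acot11* and *Acot7* lay above the highest listed marker of brown fat and of neurons respectively, at 1.75 and 15.7 CPM per kilobase.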

How the data were processed

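RNA was made into stranded poly-A libraries and sequenced as paired ends. The authors used Trimmomatic, FastQC, STAR, featureCounts and edgeR with GRCm38 (mm10), per the labels and methods. Versions and annotation are not given in the sources used here. The deposited table holds, per gene, the authors' mean log2 CPM over 8 libraries, which was used, and their fold change, F statistic, p-value and false discovery rate of V227A over wild-type, which were set aside by choice, so the genotypes are not compared. As no values per library were among the files used, the planned count test and the spread between replicates could not be computed here.

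Levels were computed with Python 3.11.15 and pandas 2.3.3, taking away a prior count of 2 per library. The genes with 1 to 5 reads in total, 2378 in number, came out within 0.1 of a whole read in 99.9%, and all reads summed to 100.1% of the effective library size, a mean over libraries. Exon, transcript and coding lengths came from GENCODE vM21, and 94.8% of genes with reads had one. As the annotation used for the counting is not given, a length may cover exons over which no reads were counted. The planned coding length from RefSeq proteins was replaced by that of GENCODE. Coding sequences were aligned with Biopython 1.88, for the chromosome 12 cluster and *Acot9* with *Acot10* only. Shared stretches were searched for the *Acot* genes only, so sequence shared among the genes of the other lists was not analysed here.

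All members, of each other list the 3 highest and the lowest, every other thioesterase, and the highest marker were named. The highest and lowest hepatocyte markers are both given. 1 gene was left out of the peroxisomal oxidation list and is not reported here, so the count, median and order of that list are those of the 7 genes kept. Members and lists were chosen with earlier results of these data known. The import codons, *Acot1* and *Acot2* windows and overlapping genes were added after the data were seen. Only the recovery of library size and reads from the mean log2 CPM was tested on simulated data, which were Poisson counts. The simulated means were made with the same formula and prior count, so the test checked the arithmetic and could not check that assumption.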

Additional observations from a re-analysis of the deposited data

How the results depend on the processing

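No paired analysis was possible because the values used, mean log2 CPM, are means over all libraries, and the authors' own comparison was set aside. With no values per library, leaving out each replicate in turn, the replicate block and the alternative count tests were not run. The summed cytosolic level of 69.1 CPM per kilobase became 85.9 with the longest transcript, 154 with the coding length, 143 with *Acot13* counted as cytosolic and 53.4 with *Acot7* counted as mitochondrial. The mitochondrial sum of 77.1 became 79.7, 136, 3.51 and 92.8 under the same changes. The peroxisomal sum of 20.3 became 26.1 and 55.5 with the other lengths, and was untouched by the moves. Single levels rose by up to 1.57 times with the longest transcript, 1.62 to 5.28 times with the coding length, and up to 1.03 times with the prior count left in. Ranked among only the 11540 genes at or above 0 on the log2 CPM scale, *Acot13* ranked at the 94.9th percentile and *Acot9* at the 20.8th, and 6 of 10 members lay above the median, all but *Acot2*, *Acot4*, *Acot9* and *Acot11*. With stretches of 100 in place of 50 bases, the coding shares found in another *Acot* gene were 41.0% for *Acot1*, 28.4% for *Acot2*, 12.3% for *Acot3*, 1.89% for *Acot4* and 1.31% for *Acot9*. Among the thioesterases, depth limits *Acot5* most, whose 1.997 reads allow 0.242 to 7.22 reads (95% Poisson).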

Other observations

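The subunits of the mitochondrial trifunctional protein, which work together in long-chain oxidation and are encoded by adjacent genes, had unlike levels, at 57.2 CPM per kilobase for *Hadha* and 4.87 for *Hadhb*. Over the coding length they stood at 218 and 22.5. The pair was singled out after its values were seen, and the cause was not tested.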
